A study of Mus musculus with 6 samples.

Results

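Transcripts of the autophagy core machinery and its cargo receptors were compared between mouse cells exposed to neutrophil extracellular traps and unexposed cells. The 40 genes were taken by symbol from the deposited table of 55401 genes, by a rule that uses names and no threshold on a value, although the list was drawn up with earlier results of these data known. All 40 symbols were found, each on 1 row, and 39 passed the filter on low counts. Neutrophil extracellular traps (NETs) are meshes of chromatin and antimicrobial proteins that activated neutrophils expel. The control group was 3 samples with the treatment label Normal, and the other group was 3 samples labelled NETs-treated. All 6 carry the genotype label WT, and the labels give the cells as BMDM, bone marrow-derived macrophages. The sample titles carry the name BV2, which is a mouse microglial line. Neither the dose and duration of the exposure nor the age of any donor mice is given in the sources used here. The labels do not say whether replicates were independent cultures or mice, so p-values measure only the spread between these samples and could reflect technical variation alone.

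Autophagy encloses cytoplasm in a double membrane and delivers it to the lysosome. The ULK kinase complex starts the process, a class III phosphatidylinositol 3-kinase marks the site with its lipid product PI3P, and PI3P-binding and lipid-transfer proteins let the membrane, the phagophore, grow. Conjugating enzymes then attach ubiquitin-like ATG8 proteins (the LC3 and GABARAP families) to the membrane lipid, and cargo receptors link ubiquitin-tagged cargo to ATG8. In macrophages part of the same machinery attaches LC3 to phagosomes, a process called LC3-associated phagocytosis. Protein levels, lipidation and flux were not measured here, and in bulk samples fewer cells of a type and less RNA per cell cannot be told apart.

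Total counts ran from 39994613 to 44274445 per library. The 8 macrophage markers summed to 5038 to 5197 CPM (reads per 1000000 mapped to genes, after TMM scaling) in control and 4888 to 5082 in NETs-treated libraries, and none of the 8 was at 0. Of 7 microglia markers Sall1 was at 0 everywhere, and the list summed to 529 to 557 CPM in control against 202 to 226 in NETs-treated libraries. Of 12 neutrophil markers 6 were at 0 in all libraries (S100a9, Ly6g, Mpo, Ltf, Ngp and Retnlg), and the list summed to 11.8 to 13.5 and 10.4 to 16.9 CPM. Within it, S100a8 rose from 2.47, 2.23 and 3.35 CPM to 8.80, 12.1 and 14.1 CPM (adjusted p = 1.31e-04 in edgeR), while Csf3r fell from 8.09, 6.03 and 4.52 CPM to 0, 0.0998 and 0.281 CPM (adjusted p = 2.15e-04). The 5 dendritic cell markers, mostly Itgax, summed to 152 to 160 and 59.7 to 60.2 CPM, with Ccr7 at 0. The 5 endothelial markers, mostly Vwf, summed to 66.7 to 71.7 and 28.0 to 32.0 CPM, with Cdh5 at 0. The part of these markers in the results on autophagy genes was not tested.

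More autophagy genes rose than fell. The genes of phagophore growth were all higher in NETs-treated cells, while those of the ULK complex and of conjugation moved in both directions. Of the 39 tested members 19 rose and 9 fell in NETs-treated cells, and 11 did not pass the threshold (quasi-likelihood test of edgeR, n = 3 per group, called at an adjusted p under 0.05). Among all 15272 tested genes 25.5% rose and 27.2% fell, against 48.7% and 23.1% of the members, so the share that fell was near the background. The median log2 fold change was 0.30 over the members and -0.02 over all genes tested. A change of at least 2-fold was called for 7 members upward and 1 downward, together 8 of 39, where 19.3% of all genes passed the same rule. The groups did not overlap for 34 of the 39 members, against 62.4% of all genes. These counts describe a list chosen with earlier results known and carry no test of the list.

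**Figure D1:**
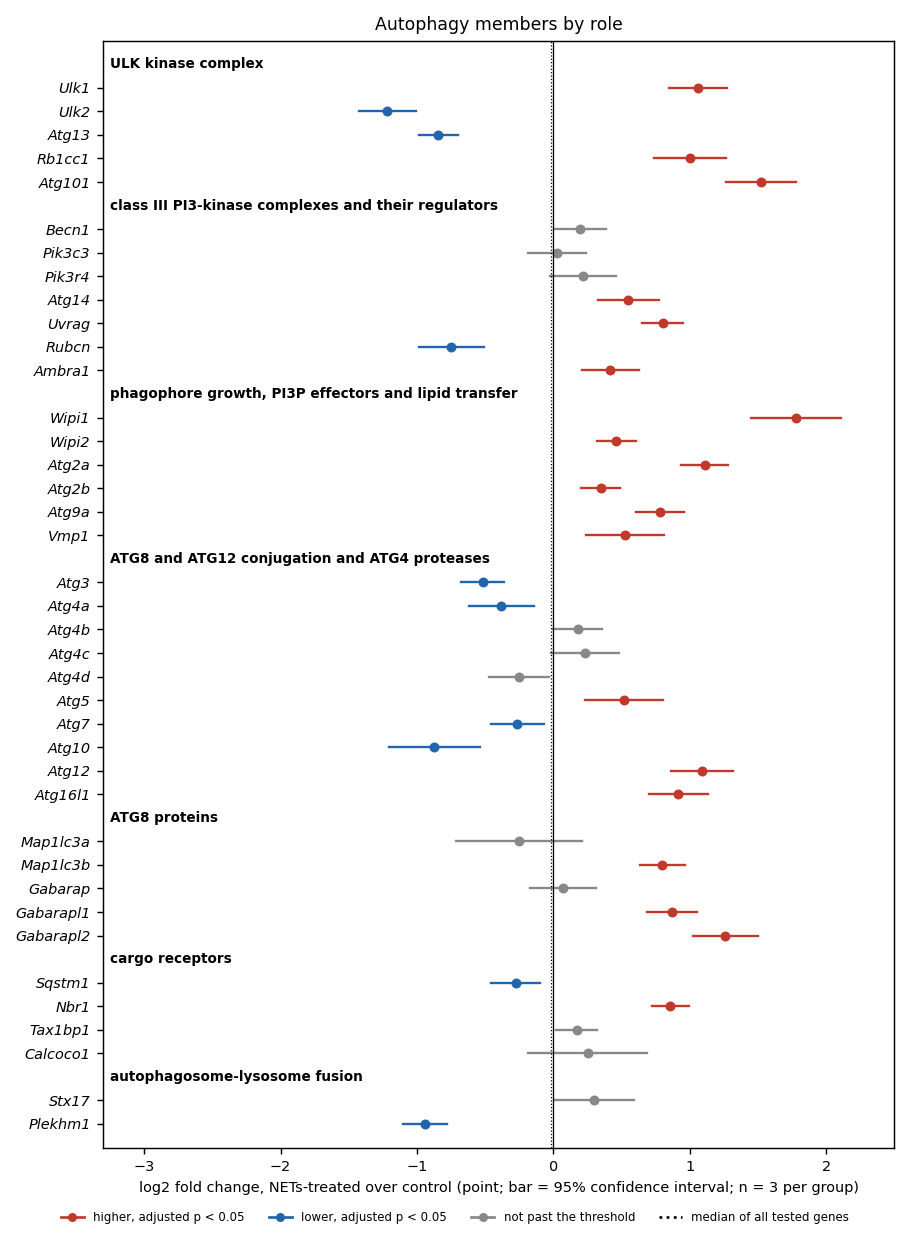
Log2 fold change of the 39 tested members (x axis, NETs-treated over control, points) with 95% confidence intervals (bars), grouped by role on the y axis and coloured by the edgeR call. All 6 genes of phagophore growth lie to the right of 0, while the ULK complex runs from -1.22 for Ulk2 to 1.52 for Atg101.

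Transcripts of the ULK complex, which receives the starvation and energy signals that start autophagy, moved in both directions. All 5 subunit genes changed, 3 upward and 2 downward, where 52.7% of all tested genes were called, 25.5% upward and 27.2% downward. Ulk1, one of the alternative catalytic kinases, was at 29.0, 25.7 and 29.2 CPM in control and 63.6, 55.1 and 55.9 CPM in NETs-treated libraries. The log2 fold change of Ulk1 was 1.06 ± 0.09 (SE; adjusted p = 3.32e-05 in edgeR). Ulk2, which encodes the other kinase, went the opposite way, from 42.3, 39.8 and 45.6 CPM to 19.0, 17.3 and 18.6 CPM. It fell by 1.22 ± 0.09 on the log2 scale (adjusted p = 1.34e-05). Every NETs-treated library thus lay above every control library for Ulk1 and below every control library for Ulk2. Per kilobase of transcript, the mean level of Ulk1 was 5.37 CPM in control and 11.2 in NETs-treated cells, while that of Ulk2 was 7.41 and 3.18. Ulk2 was the more abundant kinase transcript in control and Ulk1 in NETs-treated cells on that scale. In GRCm38, Ulk1 (ENSMUSG00000029512.11) lies on the minus strand of chromosome 5 from 110784488 to 110810097. Ulk2 (ENSMUSG00000004798.14) lies on the minus strand of chromosome 11 from 61775649 to 61855073.

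The non-catalytic subunits also split. Atg13, the regulatory subunit that is a target of mTORC1, had 297, 285 and 281 CPM in control and 158, 156 and 168 CPM in NETs-treated libraries, a fall of 0.84 ± 0.06 (SE) on the log2 scale. Atg101, whose protein binds and stabilises ATG13, rose from 21.2, 21.8 and 22.9 CPM to 54.3, 62.6 and 72.1 CPM, a log2 fold change of 1.52 ± 0.11. Atg101 (ENSMUSG00000037204.7, chromosome 15 from 101284272 to 101290945, plus strand) was the member with the second largest log2 fold change after Wipi1. The scaffold gene Rb1cc1, which encodes FIP200, rose from 95.5, 116 and 114 CPM to 188, 217 and 245 CPM, a log2 fold change of 1.00 ± 0.11. Adjusted p-values in edgeR were 1.36e-05 for Atg13, 1.24e-05 for Atg101 and 1.40e-04 for Rb1cc1. The groups were apart for each of these 3 genes. Summed over the 5 subunits, the CPM was 489 ± 3.70 in control and 517 ± 39.4 in NETs-treated cells (SD, n = 3 each), a ratio of 1.06.

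The class III PI3-kinase, which makes PI3P, changed in its accessory genes and not, at this threshold, in its core. The core consists of the lipid kinase Pik3c3 (VPS34), its regulatory subunit Pik3r4 (VPS15) and Becn1 (Beclin 1). Their log2 fold changes were 0.03 (95% interval -0.19 to 0.24), 0.22 (-0.02 to 0.46) and 0.20 (0.007 to 0.38). Adjusted p-values in edgeR were 0.821, 0.117 and 0.0769. Becn1 had 75.6, 77.9 and 76.1 CPM in control and 80.0, 86.6 and 96.1 CPM in NETs-treated libraries, which do not overlap, and its adjusted p was 0.0137 without NETs-treated replicate 1. It also passed with the stricter filter of 1 CPM and with the GC correction (adjusted p = 0.0404 and 0.0498). Becn1 shares 43.9% of its exonic length with Cntd1 on the opposite strand, so its reads are uncertain where strand was not used in counting; Cntd1 itself had 6.04 to 7.95 CPM in control and 11.2 to 13.5 CPM in NETs-treated libraries. Pik3r4 had an adjusted p of 0.00356 without NETs-treated replicate 3, where it stood at 49.0 CPM against 61.9 and 64.0 in the other two, and 0.0136 with the GC correction.

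The accessory genes decide which complex the kinase joins. Atg14, which directs the kinase to the site where the phagophore forms, rose from 25.6, 21.0 and 22.8 CPM to 34.7, 33.6 and 33.3 CPM, a log2 fold change of 0.55 ± 0.10 (SE). Uvrag, which takes the place of ATG14 in the endosomal complex, rose from 77.9, 82.3 and 83.6 CPM to 140, 139 and 146 CPM, a log2 fold change of 0.80 ± 0.07. Rubcn (Rubicon) inhibits the UVRAG-containing complex in autophagosome maturation and is required for LC3-associated phagocytosis. It fell from 48.6, 44.6 and 43.0 CPM to 26.7, 30.2 and 24.1 CPM, by 0.75 ± 0.10 on the log2 scale. Uvrag and Rubcn, an activator and an inhibitor of the same complex, thus moved in opposite directions with no overlap between groups. Ambra1, which links Beclin 1 to the ULK kinases, rose by 0.42 ± 0.09 on the same scale. The adjusted p-values in edgeR were 0.00161 for Atg14, 2.39e-05 for Uvrag, 4.18e-04 for Rubcn and 0.00493 for Ambra1. Uvrag shares 17.6% of its exonic length with the opposite-strand gene Gm45187, which had at most 1.06 CPM in any library.

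The 6 listed genes of phagophore growth all passed in the upward direction, with a median log2 fold change of 0.65. Among all tested genes 25.5% were called higher. Wipi1, a PI3P-binding protein gene, rose most of all 39 members, from 6.21, 6.43 and 5.55 CPM to 23.7, 21.0 and 17.8 CPM. That is a 3.43-fold rise, with a log2 fold change of 1.78 ± 0.15 (SE; adjusted p = 2.20e-05 in edgeR). Wipi1 (ENSMUSG00000041895.15) lies on the minus strand of chromosome 11 from 109573331 to 109611967. Its paralog Wipi2, which recruits ATG16L1, rose from 93.5, 88.3 and 92.3 CPM to 126, 124 and 127 CPM (log2 fold change 0.46 ± 0.06). Per kilobase of transcript Wipi2 remained the more abundant of the pair, at a mean of 64.2 CPM in NETs-treated cells against 10.2 for Wipi1.

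The lipid-transfer and scramblase genes moved with them. Atg2a and Atg2b encode paralogous bridges that carry lipid from the endoplasmic reticulum to the phagophore. Atg2a rose from 84.0, 77.1 and 74.3 CPM to 178, 163 and 166 CPM, a log2 fold change of 1.11 ± 0.08 (SE), and Atg2b from 126, 127 and 129 CPM to 155, 162 and 169 CPM, one of 0.35 ± 0.06. The intervals of the 2 log2 fold changes, 0.94 to 1.28 for Atg2a and 0.20 to 0.49 for Atg2b, do not overlap. Atg9a, the membrane scramblase carried on small vesicles, rose from 44.0, 40.6 and 40.6 CPM to 74.0, 67.3 and 73.3 CPM (log2 fold change 0.78 ± 0.08). It shares 31.8% of its exonic length with Gm29253 on the same strand, so a share of its reads is uncertain even where strand was used in counting. The counts of Gm29253 were not examined here. Vmp1, a scramblase of the endoplasmic reticulum, rose from 146, 151 and 151 CPM to 176, 209 and 260 CPM (log2 fold change 0.53 ± 0.13; adjusted p = 0.0078 in edgeR). The NETs-treated libraries of Vmp1 ranged 1.47-fold, against 1.04-fold in control. The microRNA gene Mir21a covers 2.4% of the exonic length of Vmp1 on the same strand.

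**Figure D2:**
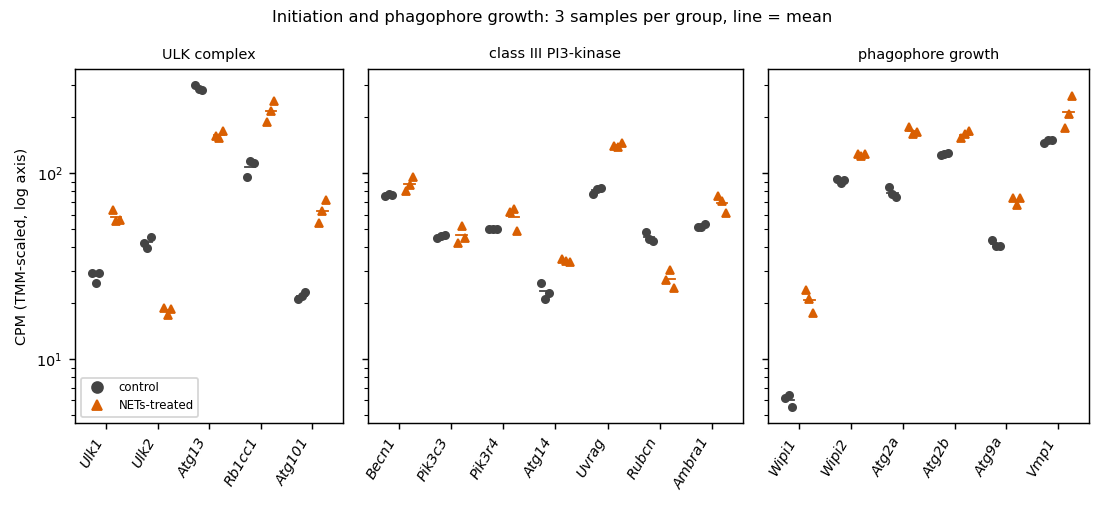
TMM-scaled CPM (y axis, log scale) of the genes of initiation, PI3P synthesis and phagophore growth in each of the 3 control (grey circles) and 3 NETs-treated samples (orange triangles), with lines at the means. Ulk1 and Ulk2 exchange their order, and the 6 growth genes lie higher in every NETs-treated sample.

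The genes of the conjugation system also moved both ways. The genes of the complex that directs LC3 to the membrane rose: Atg12, Atg5 and Atg16l1, whose products form the ATG12-ATG5-ATG16L1 complex. The genes of the enzymes that carry out the conjugation steps fell: Atg7, the E1-like activating enzyme, Atg3, the E2-like enzyme for ATG8, and Atg10, the E2-like enzyme for ATG12. Over all 10 genes of conjugation and deconjugation 3 rose, 4 fell and 3 did not pass, with a median log2 fold change of -0.04. Together 70% of them were called, where 52.7% of all tested genes were. None of the 10 had overlapping groups, the 3 that did not pass included, and the same held for 62.4% of all tested genes.

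Atg12 rose from 88.4, 98.4 and 88.3 CPM to 174, 191 and 221 CPM, a log2 fold change of 1.09 ± 0.10 (SE; adjusted p = 3.83e-05 in edgeR). Atg16l1 went from 28.0, 26.9 and 31.0 CPM to 54.2, 49.7 and 58.3 CPM, one of 0.92 ± 0.09. Atg5, which is joined covalently to ATG12, rose from 25.1, 31.1 and 30.5 CPM to 35.4, 44.0 and 44.7 CPM, one of 0.52 ± 0.12 (adjusted p = 0.00754).

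Atg10 went from 10.1, 11.3 and 12.2 CPM to 6.61, 5.86 and 5.87 CPM, a fall of 0.87 ± 0.15 on the log2 scale (adjusted p = 0.00117 in edgeR). Atg3 went from 56.6, 54.0 and 57.5 CPM to 39.0, 39.3 and 39.0 CPM, a fall of 0.52 ± 0.07 (adjusted p = 3.53e-04). Atg7 went from 58.4, 54.4 and 63.9 CPM to 50.3, 50.2 and 46.6 CPM, a fall of 0.26 ± 0.08 (adjusted p = 0.0277). The call for Atg7 was lost without control replicate 1 or 3 or NETs-treated replicate 2 or 3, with adjusted p-values of 0.0719, 0.12, 0.0749 and 0.0623, and at 0.152 with the GC correction. Of the 3 enzyme genes, Atg3 and Atg10 kept their call under every alternative run.

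Promoters of 34 of the 40 members, 41 promoters in all, were taken from RefSeq (GRCm38.p6), and those of the other members were not analysed here. The 41 were searched over the 250 bases before the start for the letters TCACGTG on both strands, the core of the element bound by TFEB, a transcription factor of lysosome and autophagy genes. The core was found in 3.13% of all 32851 promoters and in 3 of the 41, those of Atg3, Atg7 and Rubcn. All 3 of these genes were called lower, Atg7 with a call that was lost under several alternatives, where 27.2% of all tested genes were called lower. The calls of other genes with the core in a promoter were not examined here. Binding of TFEB was not measured. The stretches are shown because they are the only promoters of the 41 with the core; capitals mark the matches, and each reads 5′ to 3′ on the strand of the gene.
Atg3: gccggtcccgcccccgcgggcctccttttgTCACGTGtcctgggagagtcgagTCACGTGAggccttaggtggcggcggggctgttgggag
Atg7: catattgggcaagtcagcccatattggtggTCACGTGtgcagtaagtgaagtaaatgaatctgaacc
Rubcn: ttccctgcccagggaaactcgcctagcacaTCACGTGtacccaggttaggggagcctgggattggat
The Atg3 stretch is chr16:45158704-45158794 on the plus strand and holds 3 matches, of which 2 overlap on opposite strands. It ends 35 bases before the RefSeq start, and its last 10 bases lie in the first exon of the GENCODE model. The Atg7 stretch, chr6:114670933-114670999 on the plus strand, and the Rubcn stretch, chr16:32868419-32868485 on the minus strand, lie inside the outermost GENCODE boundaries of their genes and outside the exons of those genes, before internal starts. A match describes the letters only. The same windows held the AP-1 letters TGACTCA, the CRE letters TGACGTCA and the FOXO letters TGTTTAC in 0 of the 41 promoters, against 4.46%, 1.55% and 3.17% of all promoters. The letters TGACNNNGC, a core of the antioxidant response element, were in 6 of the 41, against 10.16% of all. These 6 promoters belong to 4 of the 34 genes, Atg13, Tax1bp1, Ulk2 and Vmp1, and more than 1 of them is a promoter of Vmp1. Of these 4 genes 2 fell, 1 rose and 1 did not pass.

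The 4 ATG4 proteases trim new ATG8 proteins and release them from the membrane. Atg4a fell from 26.2, 28.9 and 28.8 CPM to 20.3, 23.8 and 20.3 CPM, by 0.38 ± 0.10 (SE) on the log2 scale (adjusted p = 0.0137 in edgeR), and lost the call without control replicate 2 or 3 (adjusted p = 0.0571 and 0.0551). The annotation holds a retrocopy, Atg4a-ps, with at most 1.81 CPM in any library, which leaves a share of these reads uncertain. Atg4b, the most active of the 4 towards LC3, had a log2 fold change of 0.18 (95% interval -0.004 to 0.36; adjusted p = 0.0925), and passed at 0.0449 with the stricter filter and at 0.0379 with the GC correction. Atg4c had 0.23 (-0.01 to 0.48; adjusted p = 0.103, and 0.0466 without NETs-treated replicate 1). Atg4d had -0.25 (-0.47 to -0.03; adjusted p = 0.0572), and passed without NETs-treated replicate 1 (0.00783), under library-size scaling (0.0203) and under upper-quartile scaling (0.0444). Atg4d shares 19.3% of its exonic length with Kri1 on the opposite strand, which had 32.8 to 46.1 CPM in control and 14.0 to 31.2 CPM in NETs-treated libraries.

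Among the ATG8 proteins, the tags that are attached to the membrane, 3 of 5 rose and the other 2 did not pass. Over all tested genes 25.5% were called higher. Gabarapl2 (GATE-16) rose most, from 40.2, 42.4 and 45.3 CPM to 88.3, 104 and 114 CPM, a log2 fold change of 1.26 ± 0.10 (SE; adjusted p = 2.37e-05 in edgeR). Gabarapl1 rose from 64.4, 56.6 and 58.6 CPM to 116, 105 and 107 CPM (log2 fold change 0.87 ± 0.08). Map1lc3b, which encodes the widely used autophagosome marker LC3B, rose from 206, 213 and 217 CPM to 353, 351 and 403 CPM (log2 fold change 0.80 ± 0.07). The groups of these 3 genes did not overlap. In GRCm38, Gabarapl2 (ENSMUSG00000031950.7) lies on chromosome 8 from 111940703 to 111953612 and Map1lc3b (ENSMUSG00000031812.16) on the same chromosome from 121590361 to 121598760, both on the plus strand. Gabarapl1 shares 28.3% of its exonic length with 1700101I11Rik on the opposite strand, which had at most 3.76 CPM in any library.

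Gabarap had 242, 245 and 246 CPM in control and 290, 266 and 213 CPM in NETs-treated libraries, a log2 fold change of 0.07 (95% interval -0.17 to 0.31; adjusted p = 0.62 in edgeR). Without NETs-treated replicate 3, its lowest library, it was 0.19 (adjusted p = 0.0216). Map1lc3a had 29.7, 31.0 and 28.9 CPM in control and 31.5, 27.1 and 16.7 CPM in NETs-treated libraries (-0.25, interval -0.71 to 0.21; adjusted p = 0.33). Both genes thus varied more among the NETs-treated libraries than between the group means. Per kilobase of principal transcript Gabarap was the most abundant of the 5, at a mean of 181 CPM in control and 190 in NETs-treated cells. Map1lc3b followed with 83.8 and 146, Gabarapl1 with 32.9 and 60.1, Map1lc3a with 26.9 and 22.6 and Gabarapl2 with 25.4 and 60.9. Over the union of all annotated exons, which is far longer for Map1lc3b, that gene had 28.2 and 49.1 CPM per kilobase and stood near Gabarapl1, at 29.7 and 54.3. Summed over the family, the CPM was 589 ± 6.78 in control and 862 ± 14.5 in NETs-treated cells (SD, n = 3 each), a ratio of 1.46.

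The cargo receptors did not share a direction. Sqstm1 (p62), the classical receptor for ubiquitin-tagged aggregates and itself degraded by autophagy, was the member with the highest CPM, also per kilobase of principal transcript (248 CPM per kilobase in NETs-treated cells). It had 634, 602 and 597 CPM in control and 559, 496 and 458 CPM in NETs-treated libraries, a fall of 0.28 ± 0.08 (SE) on the log2 scale (adjusted p = 0.0177 in edgeR). The call was lost without control replicate 1 or 2 or NETs-treated replicate 2, at adjusted p-values of 0.0699, 0.0507 and 0.0715. Sqstm1 (ENSMUSG00000015837.15, chromosome 11 from 50199366 to 50210827, minus strand) shares 17.3% of its exonic length with Mrnip on the opposite strand, which had at most 3.37 CPM. Nbr1, a receptor that acts with p62, rose from 120, 123 and 125 CPM to 221, 219 and 227 CPM, a log2 fold change of 0.86 ± 0.06 (adjusted p = 9.46e-06). The count of Nbr1 relative to that of Sqstm1 in the same library was 0.201 ± 0.0104 in control and 0.444 ± 0.0513 in NETs-treated cells (SD, n = 3 each), with no overlap.

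Tax1bp1, a receptor that also restrains NF-kB signalling, had a log2 fold change of 0.17 (95% interval 0.02 to 0.32; adjusted p = 0.0574 in edgeR). It passed without NETs-treated replicate 1 (0.0134), with the stricter filter (0.0275) and with the replicate number as a block (0.0413), and was at -0.01 with the GC correction. Calcoco1, a receptor of endoplasmic reticulum and Golgi turnover, had 53.5, 51.0 and 50.4 CPM in control and 78.2, 64.2 and 42.1 CPM in NETs-treated libraries (0.25, interval -0.18 to 0.69; adjusted p = 0.299). Without NETs-treated replicate 3 it was 0.47 (adjusted p = 0.00327), and with the GC correction 0.43 (0.0275).

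Optn (optineurin), a receptor of bacteria and damaged mitochondria, had 0 counts in all 6 libraries and was not tested. Over the 128172620 counts of the control and the 125081009 of the NETs-treated group, a count of 0 allows up to 0.0228 and 0.0246 CPM (3 counts over the group). This limit applies to the counts as deposited and is no limit on expression of Optn, since the sources used here do not state how reads were assigned to genes. Optn (ENSMUSG00000026672.11) lies on the minus strand of chromosome 2 from 5020642 to 5064051, and its flanking genes Mcm10 and Camk1d, chosen after their values were seen, had 19.3 to 31.5 and 35.7 to 83.8 CPM. Ccdc3, which lies between Optn and Camk1d, and the antisense gene 4930551O13Rik inside Optn were also at 0 in all libraries.

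**Figure D3:**
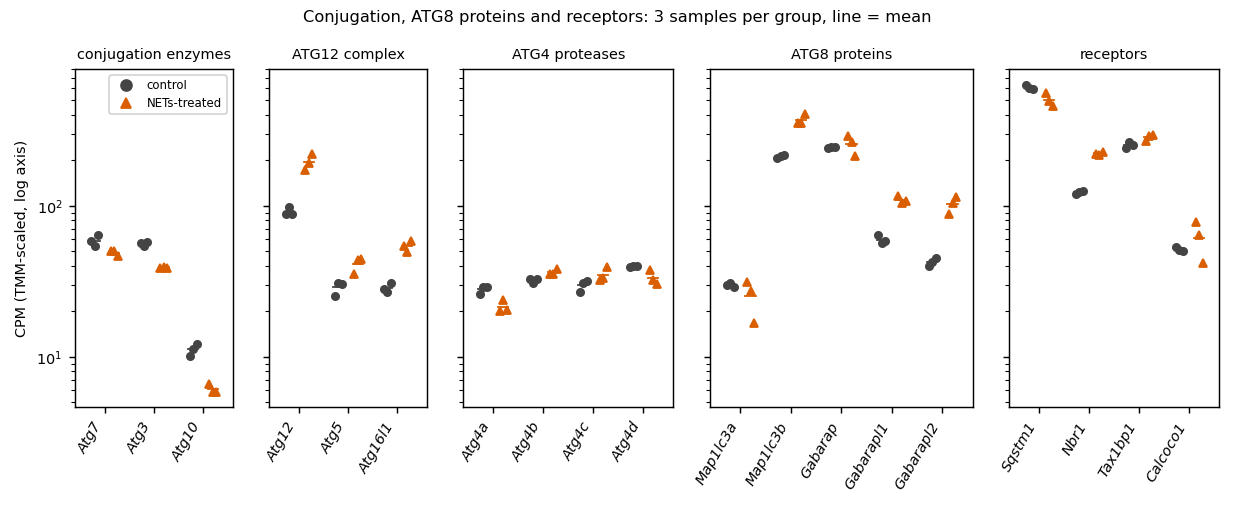
TMM-scaled CPM (y axis, log scale) of the genes of conjugation, the ATG8 proteins and the 4 detected receptors in each of the 3 control (grey circles) and 3 NETs-treated samples (orange triangles), with lines at the means. The 3 enzyme genes lie lower and the 3 genes of the ATG12 complex higher in every NETs-treated sample, and Map1lc3a, Gabarap and Calcoco1 spread most among those samples.

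The last step is fusion with the lysosome. Plekhm1, an adaptor that ties RAB7 and the HOPS tethering complex to ATG8, fell from 153, 144 and 148 CPM to 81.6, 77.0 and 73.0 CPM, by 0.94 ± 0.07 (SE) on the log2 scale (adjusted p = 1.37e-05 in edgeR). Plekhm1 (ENSMUSG00000034247.9) lies on the minus strand of chromosome 11 from 103364275 to 103412687. Stx17, the SNARE of the completed autophagosome, had 14.0, 16.3 and 12.6 CPM in control and 16.8, 16.8 and 19.1 CPM in NETs-treated libraries. Its log2 fold change was 0.30 (95% interval 0.001 to 0.59; adjusted p = 0.0853), and the groups did not overlap.

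The spread among libraries was wider in the NETs-treated group over the whole table, where the median SD of log2 CPM was 0.198 against 0.118 in control, and the members showed it too. The ratio of the highest to the lowest library was wider among the NETs-treated for 28 of 39 members, with medians of 1.17 and 1.08. It was widest for Map1lc3a (1.89) and Calcoco1 (1.86).

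Genes around the core showed no common direction. Of 12 further core genes 5 rose (Wdr45, Wdr45b, Nrbf2, Zfyve1 and Trappc11) and 3 fell (Tecpr1, Atg9b and Trappc8), with a median log2 fold change of -0.004. Together 66.7% of this list were called, where 52.7% of all genes were. Wdr45, a paralog of the WIPI genes that also binds PI3P, had a log2 fold change of 0.98 ± 0.10 (SE). Tecpr1, which links autophagosomes and damaged lysosomes to the ATG5 conjugate, fell by 1.34 ± 0.10, and Atg9b, the paralog of Atg9a, by 0.68 ± 0.21. The call for Atg9b (adjusted p = 0.0234 in edgeR) was lost without control replicate 1 or 2 or NETs-treated replicate 2 (0.0931, 0.0548 and 0.0574), without a filter (0.0505) and with the GC correction (0.0692). Of 13 genes of fusion and tethering 5 rose (Snap29, Ykt6, Rab7, Vti1b and Snap47) and 6 fell, together 84.6% against the same 52.7%. The SNARE partner of STX17, Snap29, went from 34.0, 37.0 and 33.6 CPM to 69.4, 69.9 and 72.5 CPM (log2 fold change 1.02 ± 0.07), and the SNARE gene Ykt6 had 0.95 ± 0.07. Vamp8, which completes the same SNARE bundle from the lysosome, fell from 27.9, 24.1 and 23.3 CPM to 17.8, 14.2 and 9.32 CPM, by 0.86 ± 0.21.

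Upstream, 5 of 23 tested kinase and nutrient-sensing genes rose (Prkaa1, Prkab2, Prkag1, Ddit4 and Nprl2) and 5 fell (Mlst8, Deptor, Prkag2, Sesn2 and Flcn), together 43.5% of those tested, where 52.7% of all genes were called. Sesn2, a leucine sensor that restrains mTORC1, fell from 74.8, 81.8 and 77.9 CPM to 22.5, 22.3 and 21.3 CPM, by 1.83 ± 0.08 (SE) on the log2 scale. Deptor, an inhibitory subunit of the mTOR complexes, fell from 59.4, 63.4 and 62.1 CPM to 19.9, 18.1 and 18.5 CPM, by 1.71 ± 0.08. Prkab2, a regulatory subunit of AMPK, rose from 13.3, 12.1 and 14.3 CPM to 35.5, 40.5 and 42.2 CPM (log2 fold change 1.57 ± 0.11). Among 9 tested transcription factor and regulator genes 4 rose (Tfe3, Foxo1, Foxo3 and Nfe2l2) and 4 fell (Tfeb, Mitf, Atf4 and Keap1), together 88.9%. Tfeb fell from 18.2, 15.7 and 13.9 CPM to 10.1, 5.99 and 6.28 CPM, by 1.09 ± 0.22 (adjusted p = 0.00311 in edgeR). The FOXO factors, which also drive autophagy genes, went the other way, Foxo1 with a log2 fold change of 1.08 ± 0.10 and Foxo3 with 0.93 ± 0.08.

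Of 17 tested genes of other selective autophagy receptors and regulators 4 rose (Bcl2l13, Wdfy3, Tollip and Tbk1) and 6 fell, together 58.8% against 52.7% of all genes. Pink1, the kinase that marks damaged mitochondria, fell from 69.0, 60.6 and 59.1 CPM to 32.7, 24.1 and 23.8 CPM, by 1.23 ± 0.14 (SE) on the log2 scale. Wdfy3, a scaffold of aggregate clearance, had a log2 fold change of 0.93 ± 0.06, and Tbk1, the kinase that phosphorylates p62 and optineurin, of 1.01 ± 0.08. Among genes of the NADPH oxidase, which acts with Rubicon in LC3-associated phagocytosis, Cybb, Cyba, Ncf1 and Ncf4 fell, while Rac1 and Rac2 rose. Ncf1 fell from 300.2, 279 and 286 CPM to 63.1, 46.2 and 39.7 CPM, by 2.54 ± 0.16, and the catalytic subunit Cybb from 431, 465 and 470.5 CPM to 126, 138 and 156 CPM, by 1.70 ± 0.09. Cyba fell by 0.69 ± 0.09, while Rac2 had a log2 fold change of 0.32 ± 0.07.

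**Figure D4:**
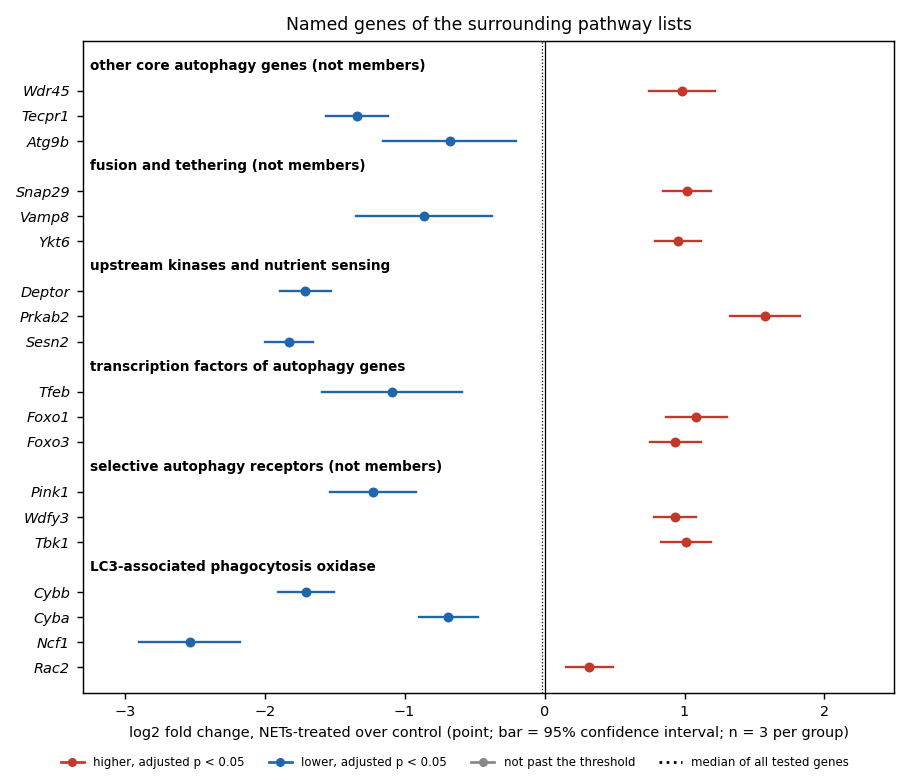
Log2 fold change (x axis, NETs-treated over control, points) with 95% confidence intervals (bars) of genes named from the 6 surrounding lists (y axis). Tfeb lies at -1.09 and Foxo1 and Foxo3 at 1.08 and 0.93, and the oxidase genes shown span -2.54 for Ncf1 to 0.32 for Rac2.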

How the data were processed

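RNA was measured by strand-specific RNA-seq in 3 control and 3 NETs-treated samples, assigned to groups by their treatment label. Per the file headers, the authors deposited 1 table with raw read counts per gene. The normalised counts the authors deposited are a signal, made by dividing each count by a constant size factor of its sample, as checked on the values. Their log2 fold changes and p-values were deposited in the same file. HISAT2, DESeq2 and the builds rn6 and mm10 are named in the submitters' processing notes without roles. How reads were counted, with which strand option and against which annotation, is not given in the sources used here.

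The 40 members and the surrounding lists were chosen with earlier results of these data known. Counts were tested with the quasi-likelihood test of edgeR 4.0.16 (R 4.3.3; TMM scaling, no covariates, two-sided), after its filter on low counts (minimum count 10, minimum total 15). The filter kept 15272 of 55401 genes and 99.94% of counts. Benjamini-Hochberg adjustment ran over those 15272 genes, with a threshold of 0.05. SEs and 95% intervals were derived from each fitted fold change and its F statistic. The procedure was tested on simulated counts. CPM values were computed here from the deposited counts, and CPM per kilobase used the longest principal transcript in GENCODE M21 (GRCm38), in which 98.1% of the table's versioned gene IDs were found. Since reads carry no molecular identifiers, limits from a count of 0 cover counting error only.

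All members could be named. Of each surrounding list the 3 called genes with the largest change and up to 2 called against the majority were taken for values, apart from genes not reported here. Where a count of 5 or fewer is spelled out by gene, names outside this rule carry no value and were chosen after their values were seen. Alternatives were other scalings, DESeq2 1.42.0, limma 3.58.1 with voom, 2 other filters, a replicate block, each sample left out, the authors' table and, added after seeing the data, a correction for GC content (lowess span 0.3).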

Additional observations from a re-analysis of the deposited data

How the results depend on the processing

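Under 16 alternatives the members that rose numbered between 19 and 23 and those that fell between 7 and 10. Of the 28 called members 25 kept direction and call under all 16, and Atg4a, Atg7 and Sqstm1 lost the call under at least 1. Leaving out each sample in turn gave 19 to 22 members higher and 7 to 10 lower, with 3265 to 4137 genes higher and 3451 to 4360 lower over the whole table. Of the 11 members that did not pass, 8 passed under at least 1 alternative. Among uncalled members the sign turned for Pik3c3 (-0.048 with scaling by library size only, and between -0.047 and 0.113 over the fits that leave out 1 sample), Gabarap (-0.008 with library size only, and between -0.012 and 0.194 over those fits), Map1lc3a (0.018 with the GC correction) and Tax1bp1 (-0.015 with the GC correction); the cause was not tested. Scaling by library size only put the median of all genes at -0.09 in log2, against -0.02 with TMM. Samples of equal number deviated together with correlations of 0.124, 0.0271 and 0.0671. Those of unequal number had lower correlations, from -0.0883 to 0.0261. All of these values were small, and the main fit did not take the numbers as pairs. The fit with the replicate block gave 20 members higher and 9 lower, and 3896 and 4209 genes. With 3 samples per group, a member that did not pass is not shown to be unchanged.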
